A study of Mus musculus with 12 samples.

Results

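Kidneys of db/db mice aged 16 weeks were compared with those of db/db mice aged 8 weeks, on the 3 arrays titled with each age, which are 6 of the 12 arrays of the series. All 12422 probe sets that are not array controls were considered, of 12488 on the array, and 6949 of them were bright enough to test. They stand for 5360 genes. A db/db mouse carries the db mutation of Lepr, the leptin receptor, on both chromosomes, and the other 6 arrays hold 8 and 16 week old db/m mice, which carry it on 1. RNA came from kidney with no further dissection stated, was purified on RNeasy columns, and about 8 ug of it went into each target. The labels describe 3 biological replicates per group, and do not say whether a replicate is 1 animal or a pool, nor give the sex or the glucose of the mice. The keyword db/m stands on all 12 samples, so genotype was taken from the titles. Both Lepr probe sets lay at the floor of the intensity scale on all 6 db/db arrays and could not check it.

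Mice without leptin signalling overeat, become obese and then hyperglycaemic. Their kidneys filter and take back large amounts of glucose and fatty acids, and albumin loss and glomerular change build up with age. The kidney is largely made of proximal tubule, which burns fatty acids rather than glucose, makes glucose itself and reclaims amino acids, glucose and phosphate. Genes of fasting and of stress hormones, such as those switched on by the lipid sensor PPAR alpha and by the glucocorticoid receptor, can be strongly induced there.

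Of the 16 week arrays, replicate 1 stood apart. Over all tested probe sets its log2 values correlated at 0.924 with replicate 2 and 0.895 with replicate 3, while those correlated at 0.958 with each other. Its correlations with the 8 week arrays were 0.936 to 0.953, against 0.865 to 0.910 for replicates 2 and 3, and the 8 week arrays correlated at 0.959 to 0.967 among themselves. A control also shifted with age: the actin 3′ to 5′ ratio, which rises as RNA is degraded or copied incompletely. It was 1.20, 1.32 and 1.25 at 8 weeks and 1.45, 1.44 and 1.85 at 16 weeks. The ratio of pyruvate carboxylase was 2.08, 3.34 and 1.77 against 2.95, 2.36 and 5.11, and that of GAPDH 0.85, 0.84 and 0.80 against 0.84, 0.88 and 0.89. In both of these the ages overlapped. The part of RNA quality in the results below was not tested beyond a fit whose covariate averages the actin and pyruvate carboxylase ratios.

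Intensities below are quantile normalised, and values of a gene are given for replicates 1, 2 and 3 in that order. A gene rose or fell where limma's Benjamini-Hochberg adjusted p was under 0.05 over all tested probe sets, and a log2 change of 1 is a doubling. Between 8 and 16 weeks 979 probe sets passed (14.1%), 474 higher and 505 lower, of which 211 and 194 changed at least 2-fold. In 1994 probe sets (28.7%) the 3 arrays of one age all lay above the 3 of the other. Genes named for the largest changes had to meet this condition, so their separation is no added result. Counted as genes, 784 passed (14.6%): 368 rose (6.87%) and 416 fell (7.76%), and 1591 (29.7%) had groups that did not overlap. Such groups were seen in 358 of the 368 that rose and 401 of the 416 that fell. Separate groups in a gene that passed therefore add little to its call. The 6.87% and 7.76% are the shares against which each list count below is to be read. The median change over all genes was -0.05. Of the 43 gene lists used below, 20 had a median that turned sign under at least 1 alternative, all between -0.20 and 0.18. Among db/m arrays, the same comparison passed for 44 genes (0.821%).

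The number of calls depended on single arrays and on the spread that was pooled. It was 621, 493 and 340 probe sets without 8 weeks replicate 1, 2 or 3, and 402 and 477 without 16 weeks replicate 2 or 3, but 1928 without 16 weeks replicate 1. In a fit of the 6 db/db arrays alone (the db/db-only fit) 123 passed, and with array weights 2560. Another fit took the mean of the scaled log2 actin and pyruvate carboxylase 3′ to 5′ ratios as a covariate (the covariate fit), and 321 passed. The share of higher calls was 48.4%, 60.6% with arrays scaled to a common median and 43.8% with the values as deposited. Among the 368 genes that rose, 16 weeks replicate 1 was the least changed array in 234, and the median log2 difference from the 8 week mean was 0.73 in it against 1.02 and 1.04. Among the 416 that fell it was the least changed in 327, with medians of -0.54 against -0.98 and -1.03.

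**Figure D1:**
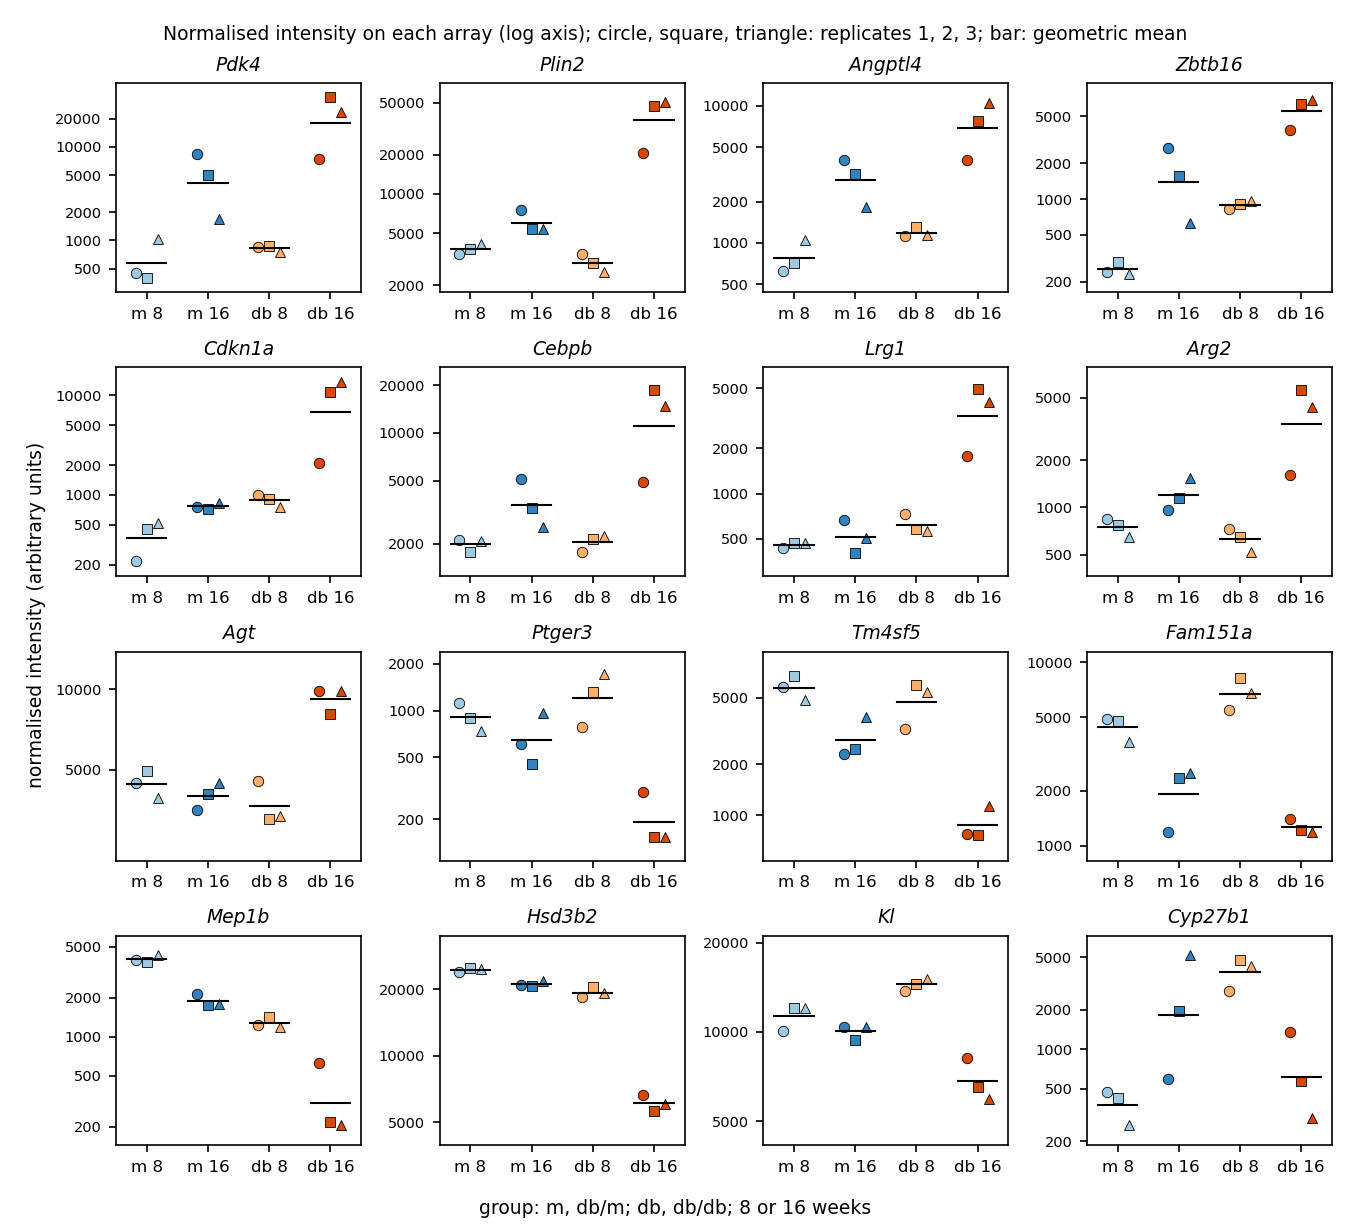
Normalised intensity (log axis, arbitrary units) of 16 genes on each of the 12 arrays, by genotype and age in weeks, with marker shape for the replicate number and a bar at the geometric mean. Pdk4 ran from 758 to 876 on the db/db 8 week arrays and from 7381 to 34337 at 16 weeks, while Hsd3b2 ran from 18380 to 20495 and from 5638 to 6605.

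Genes were ranked by their brightest probe set, among those that passed with groups that did not overlap. The 2 largest increases, of Pdk4 and Plin2, were in genes that spare glucose and store fat. Pdk4, the kinase that shuts off pyruvate dehydrogenase and so keeps pyruvate out of oxidation, gave 853, 876 and 758 at 8 weeks and 7381, 34337 and 23625 at 16 weeks. All 3 older kidneys exceeded the younger ones, replicate 1 by the least, and the mean was 21.9-fold higher (log2 change 4.46 ± 0.63 (SE), adjusted p = 0.00249). In db/m mice it gave 444, 400 and 1036 at 8 weeks and 8421, 4973 and 1684 at 16 weeks, a change of 2.86 (adjusted p = 0.0671). Plin2, which coats lipid droplets, gave 3460, 2940 and 2519 at 8 weeks and 20747, 47420 and 50547 at 16 weeks. The groups were far apart. Its 12.5-fold rise was among the firmest by a test that pools the spread of all 4 groups (log2 change 3.64 ± 0.30 (SE), adjusted p = 0.000168). Angptl4, a secreted inhibitor of lipoprotein lipase induced by fasting and fatty acids, gave 1125, 1305 and 1147 at 8 weeks and 4007, 7683 and 10479 at 16 weeks. It rose 5.77-fold (log2 change 2.53 ± 0.36 (SE), adjusted p = 0.00249), and of its 2 other tested probe sets one also rose (1.59) and one did not pass (-0.05).

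Of 37 genes of fatty acid oxidation and ketogenesis 17 rose and 1 fell, where 6.87% and 7.76% of all genes did. In 25 the 16 week values all lay above the 8 week ones, as in 13.2% of all genes. Their median change was 0.54, against -0.05 for all genes, and on the 3 older arrays it was 0.54, 0.42 and 0.50, so replicate 1 did not stand apart here. Slc25a20, the carnitine carrier that lets fatty acids into mitochondria, gave 4445, 4512 and 3661 at 8 weeks and 9134, 9558 and 10122 at 16 weeks (log2 change 1.20 ± 0.15 (SE), adjusted p = 0.00143). The 3 older kidneys were about equal, and each was above the younger ones. Acot1, which splits acyl-CoA, rose with a log2 change of 1.31 (adjusted p = 0.00213), Eci2, which shifts the double bond of unsaturated fatty acids for oxidation, with 0.98 (adjusted p = 0.00233), and Ehhadh, the peroxisomal bifunctional enzyme, with 0.94 (adjusted p = 0.00641). The gene that fell was Oxct1, which activates ketone bodies for use, by -0.78 (adjusted p = 0.0107), and was named after its value was seen. The Oxct1 call ended in the covariate fit or in the db/db-only fit, with adjusted p from 0.000778 to 0.0858 over all alternatives. In db/m arrays the median of the same 37 genes was 0.43, and 7 rose and 1 fell. For Slc25a20 the db/m change was 0.69 (adjusted p = 0.0635) and for Acot1 1.79 (adjusted p = 0.00214), and neither difference between genotypes passed (adjusted p = 0.276 and 0.390). The count of 17 became 9 without 8 weeks replicate 3, 8 in the covariate fit and 6 in the db/db-only fit. The Ehhadh call ended in the db/db-only fit, with adjusted p from 0.000314 to 0.0558 over all alternatives.

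Of 30 genes of fat synthesis and lipid droplets, 9 rose and 3 fell, with a median of 0.22. Besides Plin2 and Angptl4, those that rose included Lpin1 and Lpin2, phosphatidate phosphatases that make diacylglycerol, and G0s2, which blocks the droplet lipase ATGL. Lpin1 gave 1235, 1273 and 953 at 8 weeks and 3648, 5885 and 3597 at 16 weeks (log2 change 1.90 ± 0.20 (SE), adjusted p = 0.000834), a rise seen on every older array. G0s2 gave 2217, 1809 and 1699 at 8 weeks and 4684, 5747 and 4491 at 16 weeks (log2 change 1.38 ± 0.18 (SE), adjusted p = 0.00161) and Lpin2 rose by 0.88 (adjusted p = 0.00240). Both were higher in each 16 week kidney than in any 8 week one. Scd1, the desaturase that makes oleic acid, went the other way, with 20110, 7518 and 7581 at 8 weeks and 1009, 3446 and 4929 at 16 weeks (log2 change -2.02 ± 0.53 (SE), adjusted p = 0.0284). One young kidney, replicate 1, stood far above the other two, and replicate 1 of the older group was the lowest. The Scd1 call ended without 8 weeks replicate 1 or 3 or 16 weeks replicate 2 (0.0902, 0.0568 and 0.0583). For Scd1 adjusted p ran from 0.00541 to 0.132 over all alternatives, and the call also ended without the intensity filter, with the replicate number as a block, in the covariate fit or in the db/db-only fit. Its second probe set fell as well (-2.30). In the db/m arrays the median of the list was -0.02. The 3 lower calls became 5 without 16 weeks replicate 1, 7 with array weights and 1 in the db/db-only fit, and the 9 higher ones 14 with array weights.

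Of 35 genes of glycolysis and gluconeogenesis 5 rose and 2 fell, against 6.87% and 7.76% of all genes, and the median was -0.03. Pck1, the enzyme that commits to gluconeogenesis, gave 22751, 19035 and 16203 at 8 weeks and 40510, 37330 and 32527 at 16 weeks (log2 change 0.94 ± 0.17 (SE), adjusted p = 0.00726), and every older kidney held more. Pcx, pyruvate carboxylase, which feeds the same route, rose by 0.68 (adjusted p = 0.0100), although its second probe set did not pass (-0.27). Txnip, a glucose-induced inhibitor of thioredoxin, gave 5583, 7785 and 7937 at 8 weeks and 11823, 16279 and 19697 at 16 weeks (log2 change 1.15 ± 0.27 (SE), adjusted p = 0.0202), while its second probe set did not pass (0.12). The Txnip call ended without 8 weeks replicate 1 or 3 or 16 weeks replicate 2 or 3 (0.0646, 0.0511, 0.0683 and 0.0724). For Txnip adjusted p ran from 0.00160 to 0.0995 over all alternatives, and the call also ended in the covariate fit or in the db/db-only fit. Slc2a2, the basolateral glucose transporter GLUT2, gave 14085, 15849 and 13457 at 8 weeks and 12267, 4314 and 3902 at 16 weeks (log2 change -1.29 ± 0.35 (SE), adjusted p = 0.0331), where replicate 1 was just below the younger kidneys and replicates 2 and 3 far below. The Slc2a2 call ended without 8 weeks replicate 1, 2 or 3 or 16 weeks replicate 2 or 3 (0.0735, 0.0963, 0.0834, 0.128 and 0.117). For Slc2a2 adjusted p ran from 0.000116 to 0.140 over all alternatives, and the call also ended with arrays scaled to a common median, without the intensity filter, in the covariate fit or in the db/db-only fit. Slc5a1, the apical glucose carrier SGLT1, had a change of 0.13 (adjusted p = 0.809). Pck1 rose in db/m mice too, by 1.02 (adjusted p = 0.0239). Pck1 and Pcx did not pass in the db/db-only fit (adjusted p over all alternatives 0.000439 to 0.0608 and 0.00160 to 0.0831). The 5 higher calls became 3 without 8 weeks replicate 1 or 3 or 16 weeks replicate 2, 3 in the covariate fit and 1 in the db/db-only fit. The 2 lower ones became 0 to 4 with 1 db/db array left out.

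**Figure D2:**
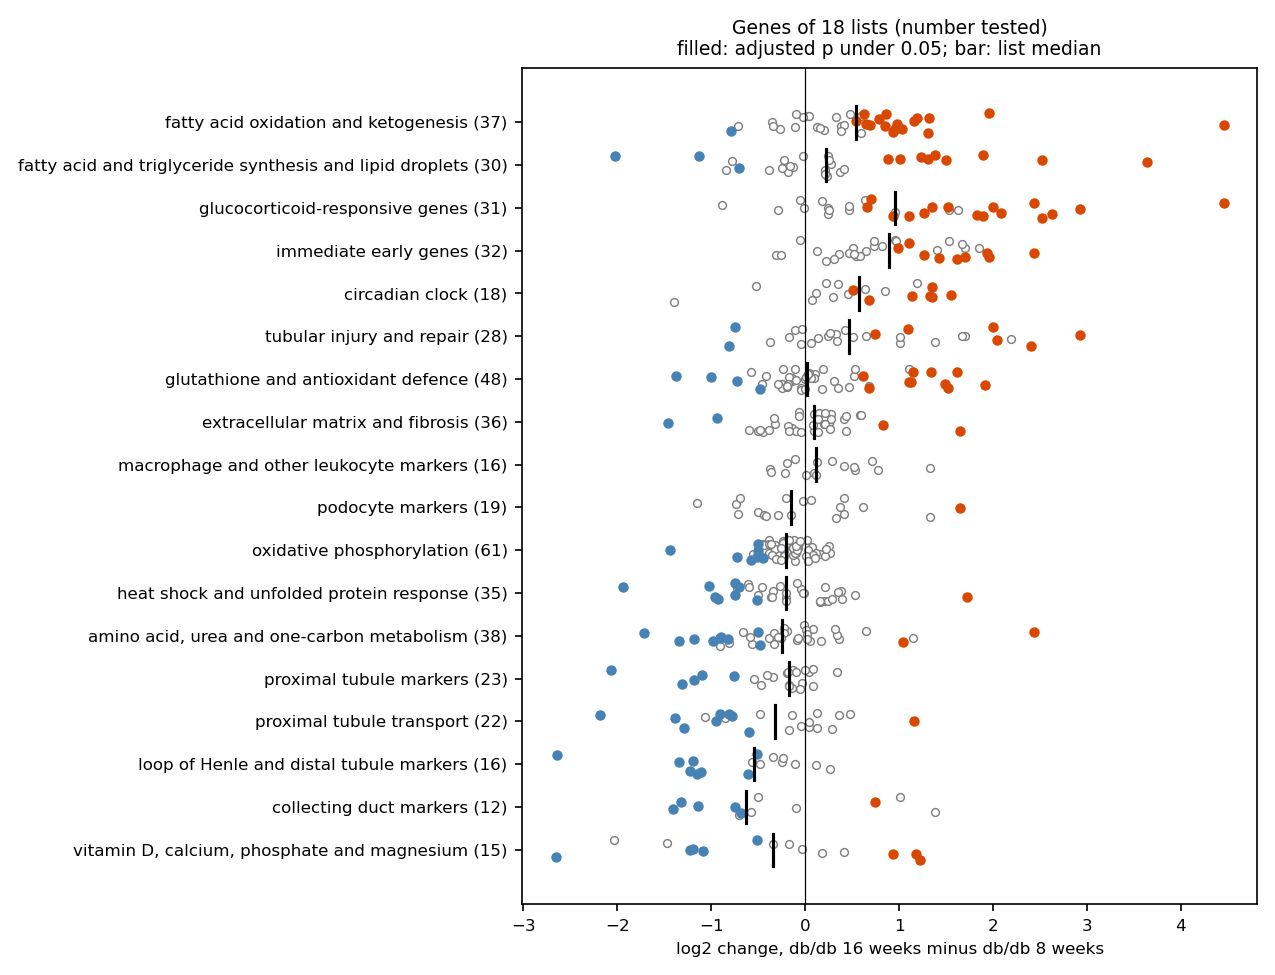
Log2 change from 8 to 16 weeks in db/db kidney (x axis) of each tested gene in 18 gene lists, with the number tested in brackets, filled where adjusted p was under 0.05, and a bar at the list median. Glucocorticoid-responsive genes have the highest median (0.96, with 16 of 31 filled on the right), and collecting duct markers the lowest (-0.63).

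Of 31 genes that respond to glucocorticoids 16 rose and none fell, and their median of 0.96 was the highest of the 43 lists. On the 3 older arrays the median was 0.44, 1.25 and 1.39, so it was smallest on replicate 1. Lpin1, Pdk4, Angptl4 and Pck1, given above, are among them, and the list therefore shares genes with the lipid lists. Zbtb16, the transcription factor PLZF, gave 816, 910 and 967 at 8 weeks and 3852, 6425 and 6860 at 16 weeks (log2 change 2.63 ± 0.42 (SE), adjusted p = 0.00395), all older values clear of the younger. In db/m it rose by 2.44 (adjusted p = 0.0250). Cebpb, a transcription factor of acute phase and fasting genes, gave 1779, 2129 and 2222 at 8 weeks and 4880, 18551 and 14689 at 16 weeks (log2 change 2.43 ± 0.41 (SE), adjusted p = 0.00533), with replicate 1 again nearest to the 8 week values. Over db/m arrays, 3 of the 31 genes rose, with a median of 0.39. The 16 calls became 9 to 10 without 8 weeks replicate 1 or 3 or 16 weeks replicate 2 or 3, 9 in the covariate fit and 6 in the db/db-only fit. Cebpb did not pass in the db/db-only fit (adjusted p over all alternatives 4.63e-05 to 0.0579).

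Metallothioneins bind zinc and copper and are induced by these metals and by glucocorticoids. Mt1 gave 22145, 25067 and 24693 at 8 weeks and 32041, 57116 and 73990 at 16 weeks (log2 change 1.10 ± 0.27 (SE), adjusted p = 0.0229). Mt2 gave 13487, 16491 and 18103 at 8 weeks and 21178, 64130 and 70089 at 16 weeks (log2 change 1.52 ± 0.37 (SE), adjusted p = 0.0217). Both were already bright at 8 weeks, and the groups did not overlap, with replicate 1 nearest to them. The Mt1 call ended without 8 weeks replicate 1, 2 or 3 or 16 weeks replicate 2 or 3 (0.0639, 0.0578, 0.0653, 0.0847 and 0.0753). For Mt1 adjusted p ran from 0.000393 to 0.111 over all alternatives, and the call also ended in the covariate fit or in the db/db-only fit. The Mt2 call ended without 8 weeks replicate 1, 2 or 3 or 16 weeks replicate 2 or 3 (0.0640, 0.0575, 0.0568, 0.0891 and 0.0770). For Mt2 adjusted p ran from 5.73e-05 to 0.117 over all alternatives, and the call also ended in the covariate fit or in the db/db-only fit. Their promoters are shown because metal response elements there are a textbook case. They run from 250 bases before to 50 after the RefSeq start on GRCm38.p6, at chr8:94178839-94179138 (+) for Mt1 and chr8:94172368-94172667 (+) for Mt2. Capitals mark the metal response element core, TGCACNC or TGCGCNC on either strand, found 3 times in Mt1 and 4 times in Mt2.
Mt1: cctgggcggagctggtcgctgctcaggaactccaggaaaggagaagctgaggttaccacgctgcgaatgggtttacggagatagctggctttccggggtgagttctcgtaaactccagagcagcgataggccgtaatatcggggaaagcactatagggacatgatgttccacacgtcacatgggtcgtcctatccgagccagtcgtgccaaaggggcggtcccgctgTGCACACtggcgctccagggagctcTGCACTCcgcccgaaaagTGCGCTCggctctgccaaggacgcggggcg
Mt2: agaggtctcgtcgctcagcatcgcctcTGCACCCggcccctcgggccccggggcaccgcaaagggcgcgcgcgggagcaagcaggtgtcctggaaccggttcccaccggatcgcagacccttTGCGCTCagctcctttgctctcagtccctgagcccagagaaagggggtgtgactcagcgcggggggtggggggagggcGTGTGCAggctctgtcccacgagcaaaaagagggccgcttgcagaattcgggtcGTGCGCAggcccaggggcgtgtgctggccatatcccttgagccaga
Of all 32851 promoters of this length, 25.7% hold at least 1 match to that core. The half-site of the glucocorticoid receptor, AGAACA on either strand, is in 19.0% of them, and 21.3% of all 27025 genes have at least 1 promoter with it. It was found in 1 of the 14 glucocorticoid-responsive genes that rose and have a promoter in the table, Lpin1. Motifs were searched separately, and a match to one can share end letters with another.

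Of 18 clock genes 7 rose and none fell, with a median of 0.58 and 0.52, 0.51 and 0.68 on the 3 older arrays. Per1, a repressor of the clock that also answers to glucocorticoids, gave 737, 1269 and 654 at 8 weeks and 2044, 2215 and 2231 at 16 weeks (log2 change 1.35 ± 0.26 (SE), adjusted p = 0.00958), the older values being nearly equal. Wee1, a cell cycle kinase under clock control, gave 557, 560 and 451 at 8 weeks and 1002, 1711 and 1306 at 16 weeks (log2 change 1.33 ± 0.23 (SE), adjusted p = 0.00612). Bhlhe40, a clock repressor, rose by 1.14 (adjusted p = 0.0100), Rora, a nuclear receptor that activates Bmal1, by 1.35 (adjusted p = 0.0104) and Cry1, the partner of Per proteins, by 0.68 (adjusted p = 0.0255). The hour at which kidneys were taken is not in the labels, and age and sampling hour cannot be told apart. The Cry1 call ended without 8 weeks replicate 2 or 3 or 16 weeks replicate 2 or 3 (0.0824, 0.0892, 0.0915 and 0.0659). For Cry1 adjusted p ran from 0.00170 to 0.0915 over all alternatives, and the call also ended with the values as deposited or in the db/db-only fit. Per1 and Rora did not pass in the db/db-only fit, nor Bhlhe40 there or in the covariate fit (adjusted p over all alternatives 0.000554 to 0.0579, 8.10e-05 to 0.0829 and 0.000263 to 0.0623). The 7 calls became 4 without 8 weeks replicate 3 or 16 weeks replicate 2 or 3, 4 in the covariate fit and 1 in the db/db-only fit. The E-box CACGTG, the site bound by the clock activators, is shown in capitals in the promoter of Per1, chr11:69098699-69098998 (+).
Per1: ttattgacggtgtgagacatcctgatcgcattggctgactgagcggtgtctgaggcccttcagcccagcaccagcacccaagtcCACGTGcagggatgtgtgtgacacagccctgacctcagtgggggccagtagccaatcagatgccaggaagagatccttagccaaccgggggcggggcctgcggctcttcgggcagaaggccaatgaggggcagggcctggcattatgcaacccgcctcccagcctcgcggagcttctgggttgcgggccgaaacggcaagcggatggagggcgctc
It was found in 2 of the 5 clock genes that rose and have a promoter in the table, Cry1 and Per1, and in at least 1 promoter of 8.09% of all genes in the table.

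Immediate early genes, which answer within minutes to growth factors, stress or handling, had a median of 0.89, and 9 of 32 rose and none fell. On the older arrays the median was 0.13, 1.14 and 1.30, so replicate 1 lay close to the younger kidneys. Klf4, a factor of growth arrest, gave 416, 432 and 327 at 8 weeks and 822, 913 and 1535 at 16 weeks (log2 change 1.43 ± 0.24 (SE), adjusted p = 0.00475), every older value being higher. Gadd45a, a sensor of DNA damage and stress, rose by 1.27 (adjusted p = 0.0111), Id1, an inhibitor of differentiation factors, by 0.99 (adjusted p = 0.0178) and Ier2 by 1.96 (adjusted p = 0.0186). The 9 calls became 2 to 5 without 8 weeks replicate 2 or 3 or 16 weeks replicate 2 or 3, 20 without 16 weeks replicate 1, 22 with array weights, 2 in the covariate fit and 0 in the db/db-only fit. The Ier2 call ended without 8 weeks replicate 1 or 3 or 16 weeks replicate 2 or 3 (0.0569, 0.0626, 0.0773 and 0.0638). For Ier2 adjusted p ran from 3.59e-05 to 0.113 over all alternatives, and the call also ended in the covariate fit or in the db/db-only fit. The Gadd45a call ended without 8 weeks replicate 3 (0.0512). For Gadd45a adjusted p ran from 0.000128 to 0.0873 over all alternatives, and the call also ended in the covariate fit or in the db/db-only fit. The Id1 call ended without 8 weeks replicate 3 (0.0734). For Id1 adjusted p ran from 0.00458 to 0.0912 over all alternatives, and the call also ended in the covariate fit or in the db/db-only fit. Klf4 did not pass in the db/db-only fit (adjusted p over all alternatives 0.000307 to 0.0549). How long tissue waited before extraction is not stated, and its part in these genes was not tested.

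**Figure D3:**
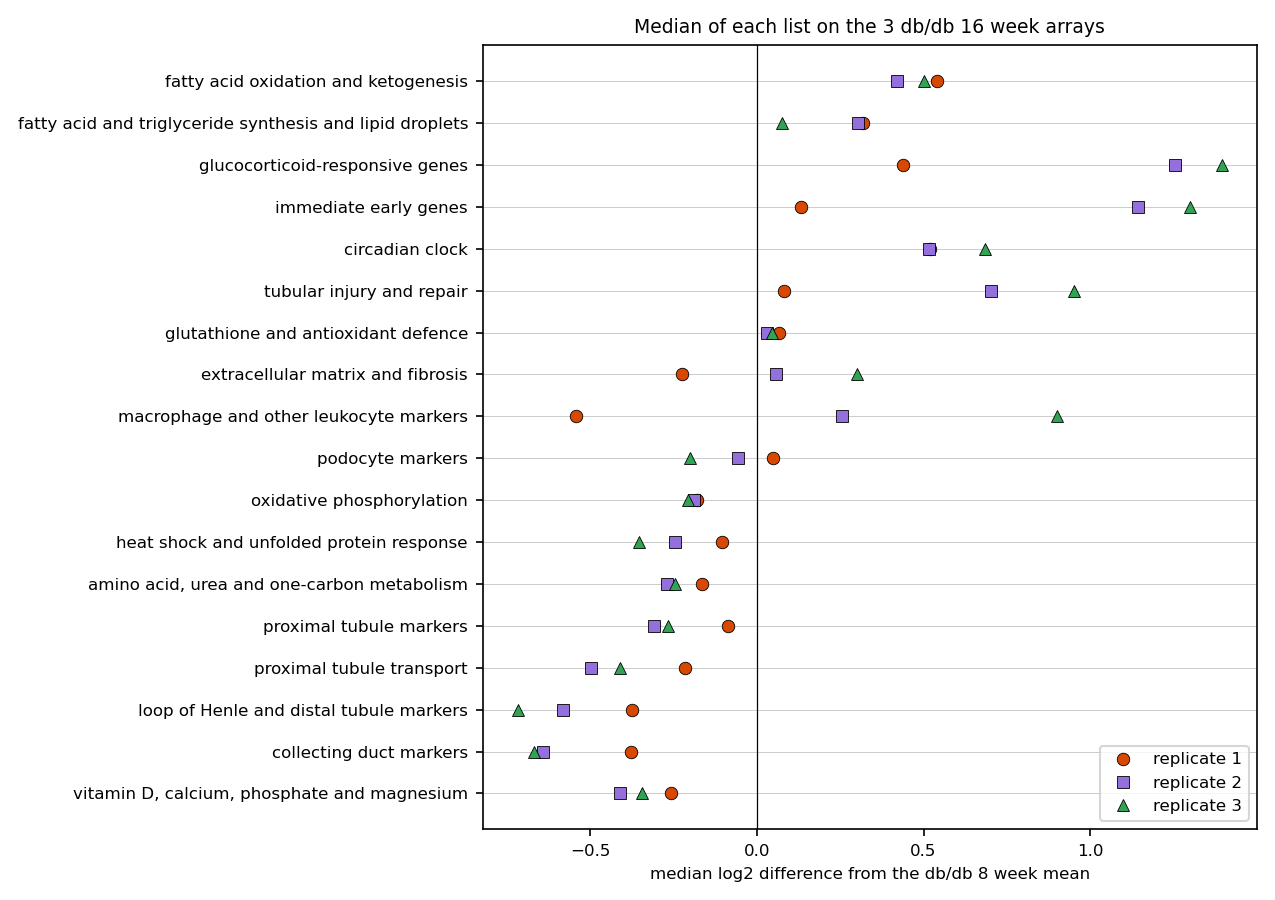
Median log2 difference of each of the 18 lists from the db/db 8 week mean (x axis) on 16 weeks replicates 1, 2 and 3. Medians of immediate early genes were 0.13, 1.14 and 1.30, while those of fatty acid oxidation were 0.54, 0.42 and 0.50.

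The other large increases came from varied pathways. Cdkn1a, the p21 protein that arrests the cell cycle, gave 998, 919 and 760 at 8 weeks and 2079, 10791 and 13689 at 16 weeks (log2 change 2.93 ± 0.57 (SE), adjusted p = 0.0100). Replicates 2 and 3 were far above the younger kidneys and replicate 1 less so. Its second probe set rose too (2.12). Lrg1, an acute phase glycoprotein that cells secrete, gave 727, 585 and 561 at 8 weeks and 1769, 4934 and 4065 at 16 weeks (log2 change 2.41 ± 0.32 (SE), adjusted p = 0.00203). Arg2, the mitochondrial arginase, gave 732, 647 and 518 at 8 weeks and 1598, 5589 and 4364 at 16 weeks (log2 change 2.44 ± 0.38 (SE), adjusted p = 0.00389). In both genes replicate 1 was nearest to the younger values. Separate groups were part of the rule that named the largest changes. Psat1, which makes serine from an intermediate of glycolysis, gave 2013, 1588 and 1661 at 8 weeks and 5184, 10765 and 8573 at 16 weeks (log2 change 2.16 ± 0.25 (SE), adjusted p = 0.000934). Tsc22d1, a leucine zipper factor, gave 5974, 6719 and 6083 at 8 weeks and 19279, 38856 and 25702 at 16 weeks (log2 change 2.10 ± 0.21 (SE), adjusted p = 0.000705). Sorbs3, the adaptor vinexin of cell contacts, rose from at or near the floor, with 158, 409 and 155 at 8 weeks and 1228, 1262 and 1865 at 16 weeks (log2 change 2.72 ± 0.38 (SE), adjusted p = 0.00233).

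Ptpn22, a phosphatase best known from lymphocytes, gave 314, 155 and 155 at 8 weeks and 575, 1832 and 1787 at 16 weeks (log2 change 2.65 ± 0.43 (SE), adjusted p = 0.00435), with 2 young kidneys at the floor of 155. Ankrd33b rose by 2.35 (adjusted p = 0.00764) and Lrrfip2 by 2.45 (adjusted p = 0.0138). Ddit4, the REDD1 protein that restrains mTOR, gave 2047, 2340 and 1901 at 8 weeks and 2828, 15664 and 15849 at 16 weeks (log2 change 2.09 ± 0.53 (SE), adjusted p = 0.0251), so that its rise rested on replicates 2 and 3. The Ddit4 call ended without 8 weeks replicate 1, 2 or 3 or 16 weeks replicate 2 or 3 (0.0608, 0.0595, 0.0810, 0.0982 and 0.0899). For Ddit4 adjusted p ran from 3.59e-05 to 0.123 over all alternatives, and the call also ended in the covariate fit or in the db/db-only fit. The Lrrfip2 call ended without 8 weeks replicate 2 or 3 or 16 weeks replicate 3 (0.0526, 0.0589 and 0.0541). For Lrrfip2 adjusted p ran from 0.00157 to 0.0589 over all alternatives, and the call also ended in the covariate fit or in the db/db-only fit. In the db/db-only fit Cdkn1a, Arg2, Ptpn22 and Ankrd33b did not pass (adjusted p over all alternatives 4.34e-05 to 0.0720, 2.82e-05 to 0.0530, 6.70e-05 to 0.0558 and 3.59e-05 to 0.0656). Angptl4, Cdkn1a and Lrg1 had db/m changes of 1.89 (adjusted p = 0.0391), 1.05 (adjusted p = 0.505) and 0.17 (adjusted p = 0.904).

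Among 28 genes of injury and repair of tubules, 6 rose and 2 fell, with a median of 0.47, which was 0.08, 0.70 and 0.95 on the 3 older arrays. S100a10, an annexin partner, gave 10963, 10357 and 10296 at 8 weeks and 21841, 23065 and 22662 at 16 weeks (log2 change 1.10 ± 0.14 (SE), adjusted p = 0.00142), nearly equal on all older arrays and clear of the younger. Fgg, the gamma chain of fibrinogen, which injured tubules also make, gave 611, 642 and 470 at 8 weeks and 2509, 2987 and 1724 at 16 weeks (log2 change 2.04 ± 0.27 (SE), adjusted p = 0.00161). Both rose in db/m mice too, S100a10 by 0.88 (adjusted p = 0.0203) and Fgg by 1.95 (adjusted p = 0.0113). Krt8, an epithelial keratin, rose by 0.75 (adjusted p = 0.0152). The Krt8 call ended without 8 weeks replicate 3 or 16 weeks replicate 2 or 3 (0.0526, 0.0614 and 0.0544). For Krt8 adjusted p ran from 0.000299 to 0.0965 over all alternatives, and the call also ended in the covariate fit or in the db/db-only fit. Krt20, a keratin of damaged tubules, gave 740, 388 and 531 at 8 weeks and 638, 7881 and 2897 at 16 weeks, which did not pass (adjusted p = 0.0750), with replicate 1 among the younger values.

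Lcn2, the injury marker NGAL, was read differently by its 2 probe sets. The brighter gave 674, 530 and 692 at 8 weeks and 528, 887 and 876 at 16 weeks, with overlapping groups (log2 change 0.24 ± 0.22 (SE), adjusted p = 0.516). The dimmer, described after its values were seen, gave 155, 184 and 163 at 8 weeks and 588, 18421 and 17308 at 16 weeks. It exceeded the filter intensity of 475 only on those 3 older arrays and so entered the test through the group where it is high. The younger values lay at or near the floor of 155, so no fold is given. Clu, clusterin, had a change of -0.10 (adjusted p = 0.761). Havcr1 and Spp1, further markers, had no probe set of their own name. The 6 higher injury calls became 12 without 16 weeks replicate 1, 12 with array weights and 3 in the db/db-only fit. The 2 lower ones became 0 to 1 with 1 db/db array left out. Of 25 p53 targets and apoptosis genes 6 rose and none fell, with a median of 0.12. Those 6 calls became 2 to 3 without 8 weeks replicate 1, 2 or 3 or 16 weeks replicate 2 or 3, 11 with array weights, 2 in the covariate fit and 0 in the db/db-only fit. Casp8, the caspase of death receptors, gave 360, 535 and 473 at 8 weeks and 871, 905 and 855 at 16 weeks (log2 change 0.96 ± 0.17 (SE), adjusted p = 0.00624), and Bcl2l1, a survival factor, rose by 0.87 (adjusted p = 0.0271). The Bcl2l1 call ended without 8 weeks replicate 1, 2 or 3 or 16 weeks replicate 2 or 3 (0.0554, 0.0661, 0.0975, 0.0916 and 0.0899). For Bcl2l1 adjusted p ran from 0.000643 to 0.129 over all alternatives, and the call also ended with the replicate number as a block, in the covariate fit or in the db/db-only fit. The Casp8 call ended in the db/db-only fit, with adjusted p from 0.000542 to 0.0579 over all alternatives. Of 24 cell cycle genes 2 rose and 1 fell, against 6.87% and 7.76% of all genes. With 1 db/db array left out 1 to 3 of them rose and 0 to 4 fell.

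Among 48 antioxidant and glutathione genes, 10 rose and 4 fell, with a median of 0.02. Those that rose include targets of the stress factor Nrf2. Txnrd1, thioredoxin reductase, gave 3483, 4185 and 3636 at 8 weeks and 8337, 9917 and 10357 at 16 weeks (log2 change 1.34 ± 0.15 (SE), adjusted p = 0.000834). Srxn1, which repairs peroxiredoxins, gave 995, 1228 and 975 at 8 weeks and 3842, 3046 and 2963 at 16 weeks (log2 change 1.62 ± 0.27 (SE), adjusted p = 0.00510). Glrx, glutaredoxin, gave 3333, 3584 and 3836 at 8 weeks and 7004, 12825 and 11352 at 16 weeks (log2 change 1.49 ± 0.21 (SE), adjusted p = 0.00213). In all 3 every older kidney was well above the younger ones. A second probe set of Srxn1 did not pass (0.14). Gstm2, a glutathione transferase, fell, with 3776, 3204 and 4159 at 8 weeks and 1201, 1676 and 1442 at 16 weeks (log2 change -1.37 ± 0.18 (SE), adjusted p = 0.00160). Prdx4, the peroxiredoxin of the endoplasmic reticulum, fell too, with 1237, 1774 and 1420 at 8 weeks and 725, 728 and 733 at 16 weeks (adjusted p = 0.00923). The second Gstm2 probe set did not pass (-0.24). The db/m changes were 0.29 (adjusted p = 0.485) for Txnrd1 and -0.50 (adjusted p = 0.232) for Gstm2, and the differences between genotypes did not pass (adjusted p = 0.0774 and 0.164). The 10 higher calls became 3 to 5 without 8 weeks replicate 1 or 3 or 16 weeks replicate 2 or 3, 5 in the covariate fit and 3 in the db/db-only fit. The 4 lower ones became 2 without 8 weeks replicate 2 or 3 or 16 weeks replicate 2 or 3, 2 with arrays scaled to a common median, 2 with the replicate number as a block, 2 in the covariate fit and 2 in the db/db-only fit.

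Markers of each tubule segment fell in part. In whole kidney, fewer cells of a segment and less RNA per cell cannot be told apart. Of 16 markers of the loop of Henle and distal tubule 8 fell and none rose, with a median of -0.54 and -0.38, -0.58 and -0.72 on the older arrays. Ptger3, a prostaglandin E2 receptor that damps salt uptake in the thick limb, gave 782, 1310 and 1712 at 8 weeks and 300, 155 and 155 at 16 weeks (log2 change -2.64 ± 0.36 (SE), adjusted p = 0.00213), 2 older kidneys being at the floor. Calb1, the calcium carrier calbindin of the distal tubule, gave 20495, 26773 and 25322 at 8 weeks and 12923, 10008 and 8408 at 16 weeks (log2 change -1.23 ± 0.23 (SE), adjusted p = 0.00923). Ppp1r1a, a phosphatase inhibitor, gave 1945, 2607 and 2480 at 8 weeks and 866, 908 and 976 at 16 weeks (log2 change -1.34 ± 0.17 (SE), adjusted p = 0.00160). Kcnj1, the potassium channel ROMK, gave 5954, 6824 and 7518 at 8 weeks and 3937, 2900 and 2652 at 16 weeks (log2 change -1.11 ± 0.19 (SE), adjusted p = 0.00506). In all 4 genes no older kidney reached a younger one. Umod, uromodulin, the defining product of the thick limb, was bright throughout and had a change of -0.34 (adjusted p = 0.0998). The 8 calls became 4 to 5 without 8 weeks replicate 2 or 3 or 16 weeks replicate 2 or 3, 5 with arrays scaled to a common median, 4 in the covariate fit and 3 in the db/db-only fit. Kcnj1 did not pass in the db/db-only fit (adjusted p over all alternatives 0.000123 to 0.0530).

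Collecting duct markers had the lowest median of the lists plotted, -0.63, with 5 of 12 lower and 1, Krt8, higher. Their summed intensity was 74753, 73823 and 83653 at 8 weeks and 52078, 71927 and 73302 at 16 weeks. In the sum, replicates 2 and 3 thus lay close to the younger kidneys and replicate 1 well below. The median over the 12 markers ranked the arrays the other way, with -0.38, -0.64 and -0.67 on the older arrays. By that measure replicate 1 was the least lowered. Avpr2, the vasopressin receptor that turns on water uptake, gave 953, 1095 and 1388 at 8 weeks and 506, 365 and 426 at 16 weeks (log2 change -1.40 ± 0.22 (SE), adjusted p = 0.00395). Cldn8, a tight junction protein, gave 1435, 1517 and 2523 at 8 weeks and 778, 696 and 651 at 16 weeks (log2 change -1.32 ± 0.22 (SE), adjusted p = 0.00510). Both were lower in each older kidney. Cldn8 fell as far in db/m mice, by -1.38 (adjusted p = 0.0203). The 5 lower calls became 2 without 8 weeks replicate 2 or 3 or 16 weeks replicate 2 or 3, 2 with arrays scaled to a common median, 3 with the replicate number as a block, 2 in the covariate fit and 1 in the db/db-only fit. The 1 higher call became 0 to 3 with 1 db/db array left out. Cldn8 did not pass in the db/db-only fit (adjusted p over all alternatives 0.000353 to 0.0547).

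In the proximal tubule 5 of 23 markers fell and none rose (median -0.17, 0.03 with arrays scaled to a common median and -0.05 as deposited), and of 22 transport genes 8 fell and 1 rose (median -0.32). Mep1b, the brush border protease meprin beta, gave 1229, 1425 and 1200 at 8 weeks and 628, 218 and 207 at 16 weeks (log2 change -2.07 ± 0.34 (SE), adjusted p = 0.00443), and was lower on every older array, least on replicate 1. Gatm, which makes the creatine precursor, gave 32974, 35158 and 34337 at 8 weeks and 9646, 20683 and 17021 at 16 weeks (log2 change -1.18 ± 0.25 (SE), adjusted p = 0.0126). Slc26a1, a sulphate carrier, gave 1295, 2171 and 1685 at 8 weeks and 964, 155 and 337 at 16 weeks (log2 change -2.18 ± 0.52 (SE), adjusted p = 0.0199). The Slc26a1 call ended without 8 weeks replicate 2 or 3 or 16 weeks replicate 2 or 3 (0.0691, 0.0616, 0.0574 and 0.0630). For Slc26a1 adjusted p ran from 0.000123 to 0.104 over all alternatives, and the call also ended in the covariate fit or in the db/db-only fit. Slc15a2, the peptide carrier PEPT2, fell by 0.81 (adjusted p = 0.00701) and Slc7a9, which takes up cystine and basic amino acids, by -0.91 (adjusted p = 0.0111). The Slc7a9 call ended without 8 weeks replicate 3 (0.0511). For Slc7a9 adjusted p ran from 0.000536 to 0.0627 over all alternatives, and the call also ended in the db/db-only fit. The summed intensity of the 23 markers was 622341 to 629284 at 8 weeks and 520387 to 593654 at 16 weeks. The 5 marker calls became 2 to 3 without 8 weeks replicate 1, 2 or 3 or 16 weeks replicate 2 or 3, 3 with arrays scaled to a common median, 8 with a trended, robust prior, 10 with array weights, 1 in the covariate fit and 0 in the db/db-only fit. The 8 transport calls became 1 to 5 without 8 weeks replicate 1, 2 or 3 or 16 weeks replicate 2 or 3, 5 with arrays scaled to a common median, 2 in the covariate fit and 0 in the db/db-only fit. Mep1b and Slc15a2 did not pass in the db/db-only fit, nor did Gatm there or in the covariate fit (adjusted p over all alternatives 6.74e-06 to 0.0608, 0.000706 to 0.0646 and 0.00359 to 0.0829).

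Other large decreases lay in genes of varied function. Tm4sf5, a tetraspan membrane protein, gave 3255, 5954 and 5411 at 8 weeks and 771, 764 and 1137 at 16 weeks (log2 change -2.43 ± 0.27 (SE), adjusted p = 0.000834). Fam151a gave 5508, 8159 and 6797 at 8 weeks and 1403, 1223 and 1196 at 16 weeks (log2 change -2.41 ± 0.27 (SE), adjusted p = 0.000834). Both were lower on every older array and about alike on all of them. Neu1, the lysosomal sialidase, gave 5212, 5417 and 4623 at 8 weeks and 2865, 611 and 681 at 16 weeks (log2 change -2.26 ± 0.44 (SE), adjusted p = 0.0100), with replicate 1 below the younger kidneys and the others far below. Siae, which removes acetyl groups from sialic acid, fell by 1.95 (adjusted p = 0.0168), Gnpda1, which returns glucosamine phosphate to glycolysis, by -1.75 (adjusted p = 0.0120), Fut9, a fucosyltransferase, by -1.98 (adjusted p = 0.0359) and Ccdc90b by -1.87 (adjusted p = 0.0100). Cldn1, a tight junction protein, gave 467, 852 and 681 at 8 weeks and 350, 155 and 155 at 16 weeks (log2 change -1.67 ± 0.34 (SE), adjusted p = 0.0111). The Siae call ended without 8 weeks replicate 2 or 3 or 16 weeks replicate 2 or 3 (0.0595, 0.0574, 0.0717 and 0.0649). For Siae adjusted p ran from 4.34e-05 to 0.102 over all alternatives, and the call also ended in the covariate fit or in the db/db-only fit. The Fut9 call ended without 8 weeks replicate 1, 2 or 3 or 16 weeks replicate 2 or 3 (0.0657, 0.121, 0.0779, 0.123 and 0.128). For Fut9 adjusted p ran from 0.00123 to 0.164 over all alternatives, and the call also ended with arrays scaled to a common median, without the intensity filter, with the replicate number as a block, in the covariate fit or in the db/db-only fit. The Cldn1 call ended with the floor at the 50th percentile, in the covariate fit or in the db/db-only fit, with adjusted p from 0.000154 to 0.0980 over all alternatives. In the db/db-only fit Neu1, Gnpda1 and Ccdc90b did not pass, nor Neu1 and Gnpda1 in the covariate fit (adjusted p over all alternatives 1.56e-06 to 0.0867, 4.31e-05 to 0.0943 and 4.62e-05 to 0.0824).

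Mineral and vitamin D genes changed in both directions: of 15, 3 rose and 5 fell (median -0.34). Kl, klotho, the co-receptor through which FGF23 lowers phosphate, gave 13771, 14538 and 15065 at 8 weeks and 8169, 6494 and 5939 at 16 weeks (log2 change -1.09 ± 0.15 (SE), adjusted p = 0.00213), with every older kidney lower. Fgfr1, the receptor it pairs with, rose, with 575, 756 and 497 at 8 weeks and 1316, 1232 and 1565 at 16 weeks (log2 change 1.19 ± 0.18 (SE), adjusted p = 0.00302), and Vdr, the vitamin D receptor, rose by 0.94 (adjusted p = 0.00918), while its second probe set did not pass (0.42). Cyp27b1, which makes active vitamin D, gave 2803, 4822 and 4299 at 8 weeks and 1362, 570 and 300 at 16 weeks (log2 change -2.65 ± 0.70 (SE), adjusted p = 0.0289), lower in all older kidneys but with a wide spread. In db/m mice it gave 470, 429 and 268 at 8 weeks and 592, 1950 and 5226 at 16 weeks, a change of 2.27 (adjusted p = 0.173), and the difference between genotypes was -4.92 ± 0.99 (SE, adjusted p = 0.0769). The Cyp27b1 call ended without 8 weeks replicate 1, 2 or 3 or 16 weeks replicate 2 or 3 (0.0508, 0.0889, 0.0900, 0.0915 and 0.105). For Cyp27b1 adjusted p ran from 0.00269 to 0.128 over all alternatives, and the call also ended without the intensity filter, with the replicate number as a block, in the covariate fit or in the db/db-only fit. The 5 lower calls became 2 to 3 without 8 weeks replicate 1, 2 or 3 or 16 weeks replicate 2 or 3, 3 with arrays scaled to a common median, 2 in the covariate fit and 2 in the db/db-only fit. The 3 higher ones became 1 in the db/db-only fit. Vdr did not pass in the db/db-only fit (adjusted p over all alternatives 0.00245 to 0.0690).

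Of 22 genes of the renin-angiotensin system and of sodium and water handling 1 rose and 4 fell (median -0.08). The one that rose was Agt, angiotensinogen, which proximal tubules make as the source of renal angiotensin. It gave 4530, 3265 and 3350 at 8 weeks and 9896, 8075 and 9833 at 16 weeks (log2 change 1.33 ± 0.17 (SE), adjusted p = 0.00160), the older values being about equal and replicate 1 as high as the rest. In db/m mice it gave 4464, 4948 and 3907 at 8 weeks and 3541, 4043 and 4477 at 16 weeks, and the difference between genotypes was 1.47 ± 0.24 (SE, adjusted p = 0.0579), just short of the threshold. Ace, the converting enzyme, did not pass (adjusted p = 0.992). Lower were Ptger3 and Avpr2, given above, Aqp1, the water channel of proximal tubule and thin limb, by -0.76 (adjusted p = 0.0473), and Hsd11b2, which shields the mineralocorticoid receptor from cortisol-like hormones, by -0.75 (adjusted p = 0.0284). The Aqp1 call ended without 8 weeks replicate 1, 2 or 3 or 16 weeks replicate 2 or 3 (0.106, 0.0910, 0.136, 0.130 and 0.111). For Aqp1 adjusted p ran from 0.0147 to 0.198 over all alternatives, and the call also ended with the values as deposited, with arrays scaled to a common median, with the floor at the 10th percentile, without the intensity filter, in the covariate fit or in the db/db-only fit. The Hsd11b2 call ended without 8 weeks replicate 2 or 3 or 16 weeks replicate 2 or 3 (0.0875, 0.0992, 0.104 and 0.0968). For Hsd11b2 adjusted p ran from 0.000544 to 0.135 over all alternatives, and the call also ended with arrays scaled to a common median, with the replicate number as a block, in the covariate fit or in the db/db-only fit. The 4 lower calls became 2 without 8 weeks replicate 2 or 3 or 16 weeks replicate 2 or 3, 2 with arrays scaled to a common median, 2 in the covariate fit and 2 in the db/db-only fit. The 1 higher call became 1 to 3 with 1 db/db array left out.

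Of 38 genes of amino acid metabolism 9 fell and 2 rose (median -0.24). Glud1, glutamate dehydrogenase, which releases ammonia, rose, with 13287, 12436 and 10479 at 8 weeks and 26917, 24279 and 23382 at 16 weeks (log2 change 1.05 ± 0.13 (SE), adjusted p = 0.00142), and Arg2 is given above. Hao2, a peroxisomal hydroxy acid oxidase, gave 25396, 31673 and 29427 at 8 weeks and 16784, 13805 and 13184 at 16 weeks (log2 change -0.98 ± 0.17 (SE), adjusted p = 0.00599). Gnmt, which methylates glycine, gave 2639, 2329 and 2787 at 8 weeks and 1378, 734 and 1031 at 16 weeks (log2 change -1.35 ± 0.25 (SE), adjusted p = 0.00742). All 4 of these genes had groups that did not overlap, as did 358 of the 368 genes that rose and 401 of the 416 that fell. Bhmt, which remethylates homocysteine with betaine, gave 4374, 4473 and 3335 at 8 weeks and 1729, 934 and 1150 at 16 weeks (log2 change -1.71 ± 0.48 (SE), adjusted p = 0.0371), while its second probe set had a change of 0.01. The Bhmt call ended without 8 weeks replicate 1, 2 or 3 or 16 weeks replicate 2 or 3 (0.0927, 0.104, 0.0796, 0.131 and 0.101). For Bhmt adjusted p ran from 0.00152 to 0.131 over all alternatives, and the call also ended with arrays scaled to a common median, with the floor at the 10th percentile, without the intensity filter, with the replicate number as a block or in the covariate fit. The 9 lower calls became 3 to 5 without 8 weeks replicate 1, 2 or 3 or 16 weeks replicate 2 or 3, 4 with arrays scaled to a common median, 16 with array weights, 2 in the covariate fit and 2 in the db/db-only fit. The 2 higher ones became 2 to 4 with 1 db/db array left out. Gnmt did not pass in the db/db-only fit (adjusted p over all alternatives 0.000109 to 0.0532).

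Of 35 genes of heat shock and the unfolded protein response 8 fell and 1 rose (median -0.20). Hsp90b1, the reticulum chaperone GRP94, gave 8672, 11723 and 11660 at 8 weeks and 5821, 5440 and 5440 at 16 weeks (log2 change -0.93 ± 0.18 (SE), adjusted p = 0.00972), lower in each older kidney. Bag3, a stress-induced co-chaperone, rose, with 888, 586 and 804 at 8 weeks and 1448, 2668 and 3907 at 16 weeks (log2 change 1.73 ± 0.30 (SE), adjusted p = 0.00566). Probe sets of Hspa4, a chaperone of the cytosol, disagreed. The brightest gave 3887, 4029 and 3742 at 8 weeks and 2034, 874 and 589 at 16 weeks (log2 change -1.94 ± 0.34 (SE), adjusted p = 0.00618), while another, described after its values were seen, rose by 0.59 (adjusted p = 0.0220) and the changes of the 3 others were 0.45 to 0.77, none of which passed. The rise of that probe set of Hspa4 ended without 8 weeks replicate 1, 2 or 3 or 16 weeks replicate 2 (0.0643, 0.0534, 0.0656 and 0.0855), with the values as deposited and in the db/db-only fit, with adjusted p from 0.000537 to 0.116 over all alternatives. The 8 lower calls became 3 to 5 without 8 weeks replicate 2 or 3 or 16 weeks replicate 2 or 3, 4 with arrays scaled to a common median, 5 with the replicate number as a block, 4 in the covariate fit and 0 in the db/db-only fit. The 1 higher call became 1 to 4 with 1 db/db array left out. Hspa4, Bag3 and Hsp90b1 did not pass in the db/db-only fit (adjusted p over all alternatives 3.59e-05 to 0.0668, 7.05e-05 to 0.0646 and 0.000890 to 0.0579).

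Of 61 subunits of oxidative phosphorylation 7 fell and none rose, where 7.76% of all genes fell. The median was -0.20, or -0.18, -0.19 and -0.21 on the 3 older arrays, but 0.00 with arrays scaled to a common median and -0.08 as deposited. In 30 all older values lay below the younger ones, as in 16.5% of all genes. Uqcrb, of complex III, gave 23346, 26917 and 23950 at 8 weeks and 16967, 14051 and 14085 at 16 weeks (log2 change -0.72 ± 0.16 (SE), adjusted p = 0.0144). The Uqcrb call ended without 8 weeks replicate 2 or 16 weeks replicate 2 (0.0544 and 0.0563). For Uqcrb adjusted p ran from 0.00101 to 0.103 over all alternatives, and the call also ended with arrays scaled to a common median, in the covariate fit or in the db/db-only fit. The 7 calls became 1 to 3 without 8 weeks replicate 1, 2 or 3 or 16 weeks replicate 2 or 3, 3 with the values as deposited, 1 with arrays scaled to a common median, 12 with a trended, robust prior, 18 with array weights, 4 with the replicate number as a block, 1 in the covariate fit and 0 in the db/db-only fit. In db/m arrays the median was -0.17. Of 21 citric acid cycle genes 1, Pcx, rose and 2 fell, Idh2, the mitochondrial isocitrate dehydrogenase that makes NADPH, by -0.75 (adjusted p = 0.00618) and Idh3a, that of the cycle, by -0.62 (adjusted p = 0.0203). The Idh3a call ended without 8 weeks replicate 3 or 16 weeks replicate 2 (0.0760 and 0.0729). For Idh3a adjusted p ran from 0.00187 to 0.0824 over all alternatives, and the call also ended in the db/db-only fit. The Idh2 call ended in the db/db-only fit, with adjusted p from 0.000229 to 0.0627 over all alternatives. The 2 lower calls of the cycle were 1 to 2 with 1 db/db array left out.

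Among 18 genes that make or take up cholesterol, 4 fell and none rose (median -0.29). Fdps, which makes farnesyl diphosphate, gave 1772, 2163 and 2283 at 8 weeks and 1097, 764 and 948 at 16 weeks (log2 change -1.15 ± 0.22 (SE), adjusted p = 0.0100). Cyp51, lanosterol demethylase, gave 536, 747 and 593 at 8 weeks and 332, 255 and 257 at 16 weeks (log2 change -1.15 ± 0.16 (SE), adjusted p = 0.00213). Every older kidney was lower for both. Fdps fell in db/m mice as well, by -1.33 (adjusted p = 0.0239), and the db/m median of the list was -0.29. The Cyp51 call ended with the floor at the 50th percentile, with adjusted p from 6.70e-05 to 0.0707 over all alternatives. The 4 calls became 2 without 8 weeks replicate 2 or 3 or 16 weeks replicate 2 or 3, 7 with array weights, 2 in the covariate fit and 2 in the db/db-only fit.

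Of 36 matrix genes 2 rose and 2 fell, against 6.87% and 7.76% of all genes (median 0.10). Fn1, fibronectin, gave 762, 777 and 718 at 8 weeks and 461, 910 and 1379 at 16 weeks, with overlapping groups (adjusted p = 0.791), and Col1a1, Col1a2 and Col3a1, the fibrillar collagens, had changes of 0.27 (adjusted p = 0.666), -0.18 (adjusted p = 0.649) and -0.45 (adjusted p = 0.425). Col4a1, of basement membrane, gave 6623, 6228 and 5677 at 8 weeks and 7415, 8763 and 12129 at 16 weeks, clear of each other but short of the threshold (log2 change 0.58 ± 0.18 (SE), adjusted p = 0.0528). Lama5, the laminin alpha chain of the mature glomerular membrane, rose, with 1332, 1266 and 1039 at 8 weeks and 3437, 4035 and 3937 at 16 weeks (log2 change 1.65 ± 0.14 (SE), adjusted p = 0.000228), although its dimmer probe set did not pass (0.59). Lama3, another laminin chain, fell, with 521, 687 and 599 at 8 weeks and 260, 219 and 182 at 16 weeks (log2 change -1.46 ± 0.18 (SE), adjusted p = 0.00142). The Lama3 call ended with the floor at the 50th percentile, with adjusted p from 6.70e-05 to 0.160 over all alternatives. The higher calls became 1 to 5 with 1 db/db array left out. The lower ones became 1 to 3 with 1 db/db array left out.

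Tgfb1, a main driver of scarring, missed the intensity filter. It lay at the floor on the 3 younger arrays and at 409, 430 and 673 on the older. Icam1, an adhesion molecule, missed it too, with 254, 271 and 183 against 535, 416 and 440. Ccn2, a matricellular TGF-beta target, had a change of 0.51 (adjusted p = 0.190) and Vcam1 of 0.14 (adjusted p = 0.677). Among 25 genes that signal for BMP and TGF-beta, 4 rose and 1 fell (median 0.13), against 6.87% and 7.76% of all genes. Bmp6, a BMP ligand, gave 2796, 2954 and 3671 at 8 weeks and 6888, 7196 and 6759 at 16 weeks (log2 change 1.16 ± 0.23 (SE), adjusted p = 0.0101), higher in each older kidney, while its second probe set did not pass (0.66). Bmp4 rose by 0.89 (adjusted p = 0.00897), with a second probe set at 0.43, and Id4, a BMP target, fell by 1.36 (adjusted p = 0.00851). The 4 higher calls became 2 without 8 weeks replicate 3, 7 with array weights, 1 in the covariate fit and 1 in the db/db-only fit. The 1 lower call became 1 to 3 with 1 db/db array left out. Bmp4 and Id4 did not pass in the db/db-only fit, nor Bmp6 in the covariate fit (adjusted p over all alternatives 0.000448 to 0.0608, 6.70e-05 to 0.0715 and 0.00184 to 0.0561).

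Of 12 chemokine, cytokine and NF-kB genes 4 rose and none fell (median 0.55, 0.15 in the covariate fit). Over all genes 6.87% rose. Nfkb2, an NF-kB subunit, gave 513, 325 and 323 at 8 weeks and 710, 647 and 761 at 16 weeks (log2 change 0.90 ± 0.20 (SE), adjusted p = 0.0148), the groups being separate. The Nfkb2 call ended without 8 weeks replicate 2 or 3 (0.0560 and 0.0624). For Nfkb2 adjusted p ran from 0.00307 to 0.0868 over all alternatives, and the call also ended in the covariate fit or in the db/db-only fit. The 4 calls became 0 to 1 without 8 weeks replicate 1, 2 or 3 or 16 weeks replicate 2 or 3, 1 with the replicate number as a block, 0 in the covariate fit and 0 in the db/db-only fit. Of 26 interferon and antigen presentation genes 2 rose, B2m, the light chain of MHC class I, by 0.70 (adjusted p = 0.0259) and H2-D1, a heavy chain, by 0.87 (adjusted p = 0.0474). For H2-D1, 2 dimmer probe sets rose too, by 0.74 (adjusted p = 0.0488) and 1.24 (adjusted p = 0.0206). The limits of H2-D1 given here are those of its brightest probe set. The B2m call ended without 8 weeks replicate 1, 2 or 3 or 16 weeks replicate 2 or 3 (0.0720, 0.0710, 0.0641, 0.0909 and 0.0837). For B2m adjusted p ran from 0.00211 to 0.124 over all alternatives, and the call also ended in the covariate fit or in the db/db-only fit. The H2-D1 call ended without 8 weeks replicate 1, 2 or 3 or 16 weeks replicate 2 or 3 (0.0791, 0.123, 0.133, 0.0982 and 0.159). For H2-D1 adjusted p ran from 0.0154 to 0.208 over all alternatives, and the call also ended with the values as deposited, with the floor at the 10th percentile, without the intensity filter, with the replicate number as a block, in the covariate fit or in the db/db-only fit. With 1 db/db array left out, 0 to 3 of that list rose and 0 to 1 fell. None of 10 complement genes passed. C1qc, which macrophages make, had a change of 0.54 (adjusted p = 0.253), and with 1 db/db array left out 0 to 1 rose. Of 11 acute phase genes 3 rose, Fgg, Lrg1 and Fga, and none fell, and with 1 db/db array left out 2 to 4 rose and 0 to 1 fell.

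None of 16 leukocyte markers passed, the median was 0.12, and 7 further markers, the pan-leukocyte Ptprc and the macrophage marker Adgre1 among them, stayed at the floor in db/db kidney. The summed intensity was 14130 to 15363 at 8 weeks and 10635 to 38086 at 16 weeks, and medians on the older arrays were -0.54, 0.26 and 0.90. Cd14, of macrophages and stressed tubules, gave 1833, 1355 and 1591 at 8 weeks and 1449, 6216 and 6925 at 16 weeks, replicate 1 lying among the younger values (log2 change 1.33 ± 0.45 (SE), adjusted p = 0.0755). Without 16 weeks replicate 1, 5 of the 16 rose, 4 with array weights and 1 with a trended, robust prior. Of 19 podocyte markers 1 rose, Lama5, and none fell (median -0.14), and Vegfa had a change of -0.42 (adjusted p = 0.339). Without 16 weeks replicate 1, 4 podocyte markers rose and 5 fell, as with array weights. Wt1, a defining podocyte gene, missed the intensity filter, and Podxl, another, was at the floor. Of 17 endothelial markers 1 rose, Klf4, and 1 fell, Tek, the angiopoietin receptor, by -1.06 (adjusted p = 0.0191), and of 13 mesangial and muscle markers 2 fell, Mylk and Myl9 of the contractile apparatus, by -0.51 (adjusted p = 0.0304) and -0.63 (adjusted p = 0.0341). Over all genes 6.87% rose and 7.76% fell. With 1 db/db array left out, 1 to 2 endothelial markers rose and 0 to 1 fell, and 0 to 3 mesangial ones fell. The Tek call ended without 8 weeks replicate 2 or 3 or 16 weeks replicate 2 or 3 (0.0560, 0.0732, 0.0789 and 0.0692). For Tek adjusted p ran from 0.000182 to 0.101 over all alternatives, and the call also ended with the floor at the 50th percentile, in the covariate fit or in the db/db-only fit. The Mylk call ended without 8 weeks replicate 1, 2 or 3 or 16 weeks replicate 2 or 3 (0.0952, 0.0660, 0.0760, 0.0621 and 0.0809). For Mylk adjusted p ran from 0.0148 to 0.132 over all alternatives, and the call also ended with arrays scaled to a common median, with the replicate number as a block, in the covariate fit or in the db/db-only fit. The Myl9 call ended without 8 weeks replicate 1, 2 or 3 or 16 weeks replicate 2 (0.0806, 0.0750, 0.107 and 0.0795). For Myl9 adjusted p ran from 0.00667 to 0.121 over all alternatives, and the call also ended with the replicate number as a block or in the db/db-only fit.

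Markers of tissues that adjoin the kidney, and of blood, were also read, and their part in the results above was not tested. Their counts are to be read against 6.87% higher and 7.76% lower over all genes. Of 12 adipose markers 4 rose and 1 fell, with a median of -0.14. The 4 were Angptl4, Pnpla2, Cebpa and Lipe. The Pnpla2, Cebpa and Lipe calls each ended without 8 weeks replicate 2 or 3 or 16 weeks replicate 2 or 3. They also ended in the covariate fit or in the db/db-only fit, with adjusted p up to 0.129, 0.106 and 0.130 over all alternatives. The summed intensity of the 12 markers overlapped between ages, 28785 to 56750 against 33093 to 60052, and Pparg, which defines fat cells, stayed at the floor in db/db kidney. Skeletal muscle markers summed to 19785 to 23458 against 14238 to 20029, Acta1, Mb and 5 others lay at the floor, and 2 of 17 fell, Pgam2 and Pvalb. The Pgam2 call ended without 8 weeks replicate 2 or 3 or 16 weeks replicate 2. The Pvalb call ended without 8 weeks replicate 1, 2 or 3 or 16 weeks replicate 1 or 2. Both also ended in the covariate fit or in the db/db-only fit. A second Pvalb probe set fell too (-0.82). Of 8 liver and pancreas markers Fgg and Fga rose, the sum was 30940 to 33672 against 29467 to 34330, and Alb, albumin, had a change of -0.53 (adjusted p = 0.319). The Fga call ended without 8 weeks replicate 2 or 3 or 16 weeks replicate 2 or 3, and in the db/db-only fit. Of 6 erythrocyte markers 1 fell, the anion exchanger Slc4a1, which intercalated cells share, by -1.14 (adjusted p = 0.0329), and the sums did not overlap, 79835 to 107175 against 51474 to 71718. Of 7 adrenal markers 1 fell, Hsd3b6, a steroid dehydrogenase, with 1415, 2131 and 1405 at 8 weeks and 557, 602 and 566 at 16 weeks (log2 change -1.49 ± 0.17 (SE), adjusted p = 0.000834), and the sums were 28514 to 32714 against 26172 to 30453. With 1 db/db array left out, adipose calls ran from 1 to 4 higher and 0 to 2 lower, muscle calls from 0 to 1 and 0 to 2, liver and pancreas calls from 1 to 2 and none, erythrocyte calls from 0 to 1 and 0 to 1, and adrenal calls from 0 to 1 higher with 1 lower. The Slc4a1 call ended without 8 weeks replicate 1, 2 or 3 or 16 weeks replicate 2 or 3 (0.0729, 0.0819, 0.0992, 0.128 and 0.116). For Slc4a1 adjusted p ran from 0.000173 to 0.145 over all alternatives, and the call also ended with arrays scaled to a common median, without the intensity filter, in the covariate fit or in the db/db-only fit.

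Of 41 genes of growth signalling 7 rose and 4 fell (median 0.01), against 6.87% and 7.76% of all genes. Mtor, the kinase of nutrient signalling, gave 2563, 3214 and 3024 at 8 weeks and 6421, 7243 and 10253 at 16 weeks (log2 change 1.42 ± 0.18 (SE), adjusted p = 0.00160) in db/db mice and 8291, 7415 and 7893 at 8 weeks and 9314, 8473 and 7426 at 16 weeks in db/m mice. By this probe set the young db/db kidneys lay below all db/m ones. Its second probe set rose too (0.85), but there they gave 2177, 2041 and 2075, above the db/m range of 1505 to 1901. Igfbp3, a carrier of IGF, rose by 1.12 (adjusted p = 0.0183), while its second probe set did not pass (0.44). Fgfr4, a receptor of growth factors, fell by 1.52 (adjusted p = 0.0100), with 2 older arrays at the floor. Igf1 had a change of -0.40 (adjusted p = 0.257). The Igfbp3 call ended without 8 weeks replicate 1 or 3 or 16 weeks replicate 2 or 3 (0.0552, 0.0574, 0.0738 and 0.0661). For Igfbp3 adjusted p ran from 0.000624 to 0.102 over all alternatives, and the call also ended in the covariate fit or in the db/db-only fit. The Fgfr4 call ended with the floor at the 50th percentile or in the db/db-only fit, with adjusted p from 7.71e-05 to 0.272 over all alternatives. The 7 higher calls became 2 to 3 without 8 weeks replicate 1 or 3 or 16 weeks replicate 2 or 3, 11 without 16 weeks replicate 1, 12 with array weights, 2 in the covariate fit and 3 in the db/db-only fit. The 4 lower ones became 1 to 2 without 8 weeks replicate 2 or 3 or 16 weeks replicate 2 or 3, 2 with the floor at the 50th percentile, 8 with array weights, 1 in the covariate fit and 0 in the db/db-only fit. Of 29 genes of xenobiotic, steroid and retinoid metabolism 3 rose and 2 fell, against the same 6.87% and 7.76% of all genes. With 1 db/db array left out 1 to 3 of them rose and 1 to 5 fell. Aldh1a1, which makes retinoic acid, gave 6617, 7603 and 7727 at 8 weeks and 22145, 22446 and 18043 at 16 weeks (log2 change 1.51 ± 0.15 (SE), adjusted p = 0.000673), and it rose in db/m mice by 1.74 (adjusted p = 0.000917). Hsd17b10, a mitochondrial dehydrogenase, fell by 0.76 (adjusted p = 0.00432). The Hsd17b10 call ended in the db/db-only fit, with adjusted p from 0.000434 to 0.0627 over all alternatives.

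Of 27 hypoxia-inducible genes 4 rose and none fell (median -0.01), against 6.87% and 7.76% of all genes. Adm, adrenomedullin, gave 448, 427 and 471 at 8 weeks and 1689, 879 and 1029 at 16 weeks (log2 change 1.36 ± 0.25 (SE), adjusted p = 0.00677), highest on replicate 1. The Adm call ended in the db/db-only fit, with adjusted p from 0.00186 to 0.0554 over all alternatives. Those 4 calls became 1 to 2 without 8 weeks replicate 1, 2 or 3 or 16 weeks replicate 2 or 3, 2 with the replicate number as a block, 2 in the covariate fit and 0 in the db/db-only fit. None of 13 polyol, hexosamine and pentose phosphate genes passed (median 0.18), and Glo1, glyoxalase, had a change of -0.53 (adjusted p = 0.0582). Of 18 androgen-responsive genes 1 rose and 1 fell, of 22 ribosomal proteins 1 fell, and of 42 splicing and RNA-binding genes 3 rose and 2 fell. The shares of all genes were again 6.87% and 7.76%. Sfpq, a paraspeckle protein, gave 540, 444 and 326 at 8 weeks and 1238, 1245 and 871 at 16 weeks (log2 change 1.37 ± 0.27 (SE), adjusted p = 0.0102). The Sfpq call ended in the db/db-only fit, with adjusted p from 0.000457 to 0.0502 over all alternatives. With 1 db/db array left out, splicing calls ran from 1 to 5 higher and 0 to 6 lower, androgen-responsive ones from 1 to 2 and 0 to 5, ribosomal ones from 0 to 1 and 0 to 2, and polyol ones from 0 to 1 and 0 to 2.

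Whether the change with age differed between db/db and db/m was tested on all 12 arrays, so it shares the db/db arrays with the comparison above. It passed for 8 probe sets (0.115%), 5 with a more positive change in db/db and 3 with a more negative one, and 1087 had an unadjusted p under 0.05. Over the 368 genes that rose in db/db the median db/m change was 0.20. Of them 282 had a positive change in db/m, and 20 rose there. Over the 416 that fell the median db/m change was -0.19. Of these 335 had a negative change in db/m, and 5 fell there. Plin2, the droplet coat, gave 3486, 3753 and 4105 at 8 weeks and 7527, 5392 and 5349 at 16 weeks in db/m, and the difference was 2.97 ± 0.42 (SE, adjusted p = 0.0258). Hsd3b2, a steroid dehydrogenase, gave 18380, 20495 and 19131 at 8 weeks and 6605, 5638 and 6042 at 16 weeks in db/db and 23824, 24940 and 24763 at 8 weeks and 20946, 20636 and 21737 at 16 weeks in db/m, with a difference of -1.45 ± 0.17 (SE, adjusted p = 0.00911). All 6 db/m values and the 3 of young db/db mice lay above those of the older db/db mice. For the laminins the difference was 1.51 ± 0.20 (SE, adjusted p = 0.0258) for Lama5 and -1.60 ± 0.26 (SE, adjusted p = 0.0464) for Lama3. Rras, a small GTPase, gave 721, 789 and 563 at 8 weeks and 1726, 2787 and 1871 at 16 weeks in db/db and 783, 842 and 811 at 8 weeks and 749, 612 and 469 at 16 weeks in db/m, with a difference of 2.04 ± 0.31 (SE, adjusted p = 0.0368). The actin 3′ to 5′ ratio shifted in db/m too, from 1.46 to 2.14 at 8 weeks to 2.04 to 2.82 at 16 weeks. That of pyruvate carboxylase was 28.6 to 34.5 in older db/m and 2.36 to 5.11 in older db/db kidneys. The part of this in the differences was not tested beyond the covariate fit.

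Dio1, the deiodinase that activates thyroid hormone, fell in db/m mice, with 1354, 1235 and 1066 at 8 weeks and 401, 416 and 630 at 16 weeks, a change of -1.36 (adjusted p = 0.0113), while in db/db it gave 417, 448 and 525 at 8 weeks and 681, 614 and 665 at 16 weeks, which did not pass (adjusted p = 0.0975). The difference was 1.86 ± 0.26 (SE, adjusted p = 0.0258). Of the 2 probe sets without a single gene symbol, 92869_at gave 13584, 11789 and 10765 at 8 weeks and 2201, 2379 and 3347 at 16 weeks in db/db and 17580, 16410 and 14147 at 8 weeks and 18320, 18380 and 17308 at 16 weeks in db/m, with a difference of -2.38 ± 0.25 (SE, adjusted p = 0.00585), and 102026_s_at had one of 1.87 ± 0.28 (SE, adjusted p = 0.0368). The count of 8 was 1 or 2 without db/m 8 weeks replicate 1, 2 or 3, db/m 16 weeks replicate 2, db/db 8 weeks replicate 3 or db/db 16 weeks replicate 2, 4 without db/db 16 weeks replicate 3, and 15, 16 and 764 without db/m 16 weeks replicate 3, db/db 8 weeks replicate 2 and db/db 16 weeks replicate 1. With the replicate number as a block 0 passed (1 probe set in the covariate fit). Over all alternatives the adjusted p of the difference ran from 0.000197 to 0.140 for Plin2, 0.000152 to 0.0922 for Hsd3b2, 0.00206 to 0.140 for Lama5, 0.00264 to 0.285 for Lama3, 0.00209 to 0.148 for Rras and 0.00264 to 0.148 for Dio1, and from 0.000152 to 0.0632 for 92869_at and 0.00330 to 0.168 for 102026_s_at. Genes named above as changed in db/db and not in db/m are, apart from Plin2, Hsd3b2, Lama5, Lama3 and Rras, not shown to differ between genotypes.

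**Figure D4:**
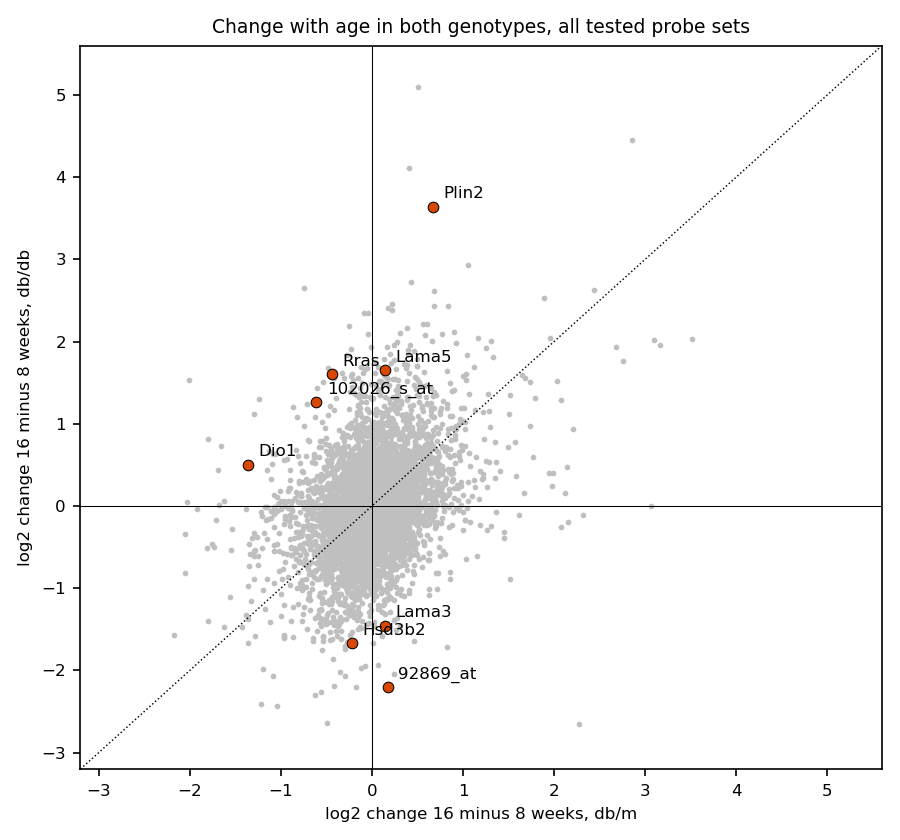
Log2 change from 8 to 16 weeks in db/m (x axis) and db/db (y axis) of each of the 6949 tested probe sets (grey), with equality as a dotted line. Orange points are the 8 probe sets whose 2 changes differed with adjusted p under 0.05, such as Plin2 at 0.67 and 3.64.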

How the data were processed

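Each deposited value is a probe set intensity on a linear scale from 1 Affymetrix mouse array, in a table of the authors whose summarising software and scaling are not given in the sources used here, so the number of counted molecules behind a value is unknown. The 12 arrays were quantile normalised, raised to a floor at the 30th percentile (155) and put on the log2 scale. Of 12422 probe sets that are not controls (66 are), the 6949 above the 50th percentile (475) on at least 3 of 12 arrays were tested with limma 3.58.1 in R 4.3.3, 1 mean per group, residual df 8 and prior df 3.34. P-values were Benjamini-Hochberg adjusted, with 0.05 as the threshold. They rest on the spread between samples within groups, pooled over all 4 groups, db/m included, and drawn toward limma's prior. Whether a sample is 1 animal or a pool is not stated. The platform annotation gave one symbol to 10833 probe sets, several to 396 and none to 1193. A gene is its probe set with the highest mean. Named genes are the 15 largest changes each way among those that passed with groups that did not overlap. For the difference between genotypes up to 8 passing genes each way were named, where the groups of either genotype did not overlap. Also named are up to 5 passing members of lowest p per list, or the 1 of lowest p. A panel of 50 genes was added (39 had a probe set and 34 were tested). The 43 lists hold 1583 symbols, of which 1580 matched and 1196 had a probe set. The members and lists were chosen with earlier results of these data known. Alternatives were the values as deposited, a common median, other floors and filters, a trended robust prior, array weights, the replicate number as a block, the covariate and db/db-only fits, and leaving out each array.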

Additional observations from a re-analysis of the deposited data

Results flagged for a closer look

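For 6 genes the change with age differed between db/db and db/m kidney by limma's test of that difference over all 12 arrays, with the difference given as db/db minus db/m on the log2 scale. Plin2 rose by 3.64 in db/db and changed by 0.67 in db/m, a difference of 2.97. The Plin2 difference ended without db/m 8 weeks replicate 1, 2 or 3 or 16 weeks replicate 2 or db/db 8 weeks replicate 3 or 16 weeks replicate 2 or 3 (0.0501 to 0.116). For Plin2 adjusted p ran from 0.000197 to 0.140 over all alternatives, and the call also ended with the replicate number as a block or in the covariate fit. For Lama5 the changes were 1.65 and 0.14, a difference of 1.51. The Lama5 difference ended without db/m 8 weeks replicate 1, 2 or 3 or 16 weeks replicate 2 or db/db 8 weeks replicate 3 or 16 weeks replicate 2 or 3 (0.0501 to 0.0913). For Lama5 adjusted p ran from 0.00206 to 0.140 over all alternatives, and the call also ended with the replicate number as a block or in the covariate fit. For Rras they were 1.60 and -0.44, and the difference was 2.04. The Rras difference ended without db/m 8 weeks replicate 1, 2 or 3 or 16 weeks replicate 2 or db/db 8 weeks replicate 1 or 3 or 16 weeks replicate 2 or 3 (0.0501 to 0.131). For Rras adjusted p ran from 0.00209 to 0.148 over all alternatives, and the call also ended with the values as deposited, with the replicate number as a block or in the covariate fit. Dio1 changed by 0.50 in db/db and -1.36 in db/m, and differed by 1.86. The Dio1 difference ended without db/m 8 weeks replicate 1, 2 or 3 or 16 weeks replicate 2 or db/db 8 weeks replicate 3 or 16 weeks replicate 2 or 3 (0.0501 to 0.0937). For Dio1 adjusted p ran from 0.00264 to 0.148 over all alternatives, and the call also ended with the replicate number as a block or in the covariate fit. Hsd3b2 changed by -1.67 in db/db and -0.22 in db/m, with a difference of -1.45. The Hsd3b2 difference ended without db/m 8 weeks replicate 1 or db/db 8 weeks replicate 3 (0.0503 to 0.0553). For Hsd3b2 adjusted p ran from 0.000152 to 0.0922 over all alternatives, and the call also ended with arrays scaled to a common median, with the replicate number as a block or in the covariate fit. Lama3 changed by -1.46 and 0.15, with a difference of -1.60. The Lama3 difference ended without db/m 8 weeks replicate 1, 2 or 3 or 16 weeks replicate 1 or 2 or db/db 8 weeks replicate 2 or 3 or 16 weeks replicate 2 or 3 (0.0685 to 0.156). For Lama3 adjusted p ran from 0.00264 to 0.285 over all alternatives, and the call also ended with the floor at the 50th percentile, with the replicate number as a block or in the covariate fit.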

How the results depend on the processing

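The number of probe sets that differed between db/db 16 and 8 weeks, 979, was 2560 with array weights, 321 in the covariate fit and 123 in the db/db-only fit, and ran from 340 to 1928 with 1 db/db array left out, highest without 16 weeks replicate 1. It was 939 with the values as deposited, 736 with a common median, 867 without the filter and 1108 with a trended, robust prior. The 8 differences between genotypes became 50 with the floor at the 50th percentile, 20 without the filter, 52 with a trended, robust prior, 1167 with array weights and 1 with the covariate, and ran from 1 to 764 with 1 array left out, where the highest count was without db/db 16 weeks replicate 1. Of 18 pairs of same-numbered arrays, 1 correlated over 0.1 (mean -0.047) in differences from the group mean. With group means taken from 3 arrays, this cannot decide whether the numbers mark a pairing. With the replicate number as a block 711 and 0 probe sets passed. The cause of these changes was not tested. No gene or probe set recomputed under these alternatives turned its direction while called. Precision is limited by 3 arrays per group, and values near the floor of 155 have no order.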
